A study of Drosophila melanogaster with 3 samples.

Results

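Far intronic peaks of the transcription factor Runt were those peaks of the IDR list whose summit lay inside a protein-coding gene, in no protein-coding exon, and more than 3000 bases from every protein-coding transcript start. The IDR list holds the pooled peaks that passed the authors' irreproducible discovery rate threshold, a limit on how far replicates may disagree in rank. The choice used position alone and no measured value beyond a peak's presence in the list. That list equals the 3065 strongest pooled peaks by the authors' signal value, so presence in it is itself a cut on strength. Of 3065 IDR peaks, 616 met it (20.1%, 95% exact Clopper-Pearson interval 18.7 to 21.6). The data are chromatin immunoprecipitation and sequencing (ChIP-seq) of whole Drosophila melanogaster embryos aged 0 to 16 hours, in 3 biological replicates of 1 group with no second condition. The embryos came from a transgenic line that stably expresses Runt fused to GFP at the protein's C-terminal end, and anti-GFP antibody was used for precipitation. The promoter that drives the transgene is not stated in the labels, and embryos of all these ages and all their cell types were pooled in each library. Each replicate's own list holds 30000 peaks called against a control common to all replicates, and the lists do not give read depth. Peaks are ranked by the authors' signal value, whose scaling is not stated.

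Runt belongs to the RUNX family, whose members bind DNA through the conserved Runt domain together with a CBF-beta partner, and which can activate or repress transcription. It is known as a pair-rule regulator of segmentation in the early fly embryo and later acts in the nervous system. Introns of fly developmental genes often hold enhancers, stretches of DNA at which transcription factors gather away from the gene's start. The known RUNX consensus was searched on both strands as TGNGGTN with C or T at each N, and 9.36% of all IDR summit windows hold it.

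The sequences around these summits are shown first because the results on motifs rest on them. Each runs from 50 bases before a summit to 50 bases after it, on the plus strand of dm6 (RefSeq), with RUNX matches in capitals. Matches that begin with AACC or GACC are the consensus read on the minus strand. The first 7 are from strong peaks that carry a match and are printed by rank. They are not all of the strongest with a match. Some that rank above the last of them, such as those in mam (rank 336) and jing (rank 527), are not printed. The 7 printed windows lie in GlcAT-S (chr2L:9620155-9620255), bnl (chr3R:19803687-19803787), CG31145 (chr3R:23657990-23658090), MESR3 (chr2L:18621411-18621511), cwo (chr3R:10393870-10393970), gpp (chr3R:6424109-6424209) and CG13300 (chr3L:6336587-6336687). In GlcAT-S 1 of the 2 matches is centred 2 bases from the summit, and in bnl, MESR3 and cwo the match is centred 5, 5 and 4 bases from it. In CG31145, gpp and CG13300 it is farther out, at 38, 43 and 43 bases.
GlcAT-S: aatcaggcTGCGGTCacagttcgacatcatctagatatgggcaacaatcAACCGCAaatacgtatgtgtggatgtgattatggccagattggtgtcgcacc
bnl: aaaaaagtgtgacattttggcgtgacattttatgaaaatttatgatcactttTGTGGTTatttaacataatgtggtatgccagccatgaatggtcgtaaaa
CG31145: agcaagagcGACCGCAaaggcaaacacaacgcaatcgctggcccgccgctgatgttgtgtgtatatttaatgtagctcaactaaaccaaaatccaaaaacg
MESR3: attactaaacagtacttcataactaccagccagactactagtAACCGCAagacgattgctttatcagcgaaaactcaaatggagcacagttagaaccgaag
cwo: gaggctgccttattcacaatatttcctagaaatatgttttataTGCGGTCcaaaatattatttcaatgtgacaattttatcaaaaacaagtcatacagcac
gpp: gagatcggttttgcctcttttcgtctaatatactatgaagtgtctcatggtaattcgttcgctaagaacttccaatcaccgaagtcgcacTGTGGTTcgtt
CG13300: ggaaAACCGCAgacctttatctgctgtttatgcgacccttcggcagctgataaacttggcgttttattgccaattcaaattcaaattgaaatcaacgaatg

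Windows with a pair of matches were rare, and 3 more of them are from tna (chr3L:10862383-10862483), S (chr2L:1071462-1071562), which encodes Star, and lilli (chr2L:2906275-2906375).
tna: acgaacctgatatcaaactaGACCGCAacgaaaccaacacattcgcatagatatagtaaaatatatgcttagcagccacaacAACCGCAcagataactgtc
S: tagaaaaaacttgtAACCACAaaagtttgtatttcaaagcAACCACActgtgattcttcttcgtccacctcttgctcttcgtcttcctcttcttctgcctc
lilli: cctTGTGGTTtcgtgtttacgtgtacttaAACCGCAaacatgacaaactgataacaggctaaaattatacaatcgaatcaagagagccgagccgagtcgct

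Most strong summits had no match, and 3 such windows are from Gug (chr3L:8458298-8458398), beat-Ib (chr2L:15911218-15911318) and osa (chr3R:17704361-17704461). Their GC contents were 23.8%, 26.7% and 33.7%.
Gug: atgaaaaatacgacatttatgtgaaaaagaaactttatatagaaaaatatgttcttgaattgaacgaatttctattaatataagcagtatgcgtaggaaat
beat-Ib: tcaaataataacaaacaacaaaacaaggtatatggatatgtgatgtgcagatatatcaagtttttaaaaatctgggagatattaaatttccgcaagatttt
osa: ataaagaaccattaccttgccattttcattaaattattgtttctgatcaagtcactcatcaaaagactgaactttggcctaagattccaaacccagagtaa

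Far intronic peaks made up a smaller share of the IDR list than of the genome. The replicates' own 3065 strongest peaks held 18.7%, 18.9% and 19.3% far intronic summits in replicates 1, 2 and 3 (19.0% ± 0.335, SD, n = 3), against 27.9% of the bases of the 6 chromosome arms that met the same rule. The 3 replicates lay close together and all below the genome share, and the IDR list held 0.720 times that share. Far intronic sequence carried 16.5 peaks per Mb (95% Poisson interval 15.2 to 17.8). Promoters, within 500 bases of a protein-coding start, carried 83.5 per Mb, introns within 3000 bases of a start 38.8, and sequence between genes 13.3.

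**Figure D1:**
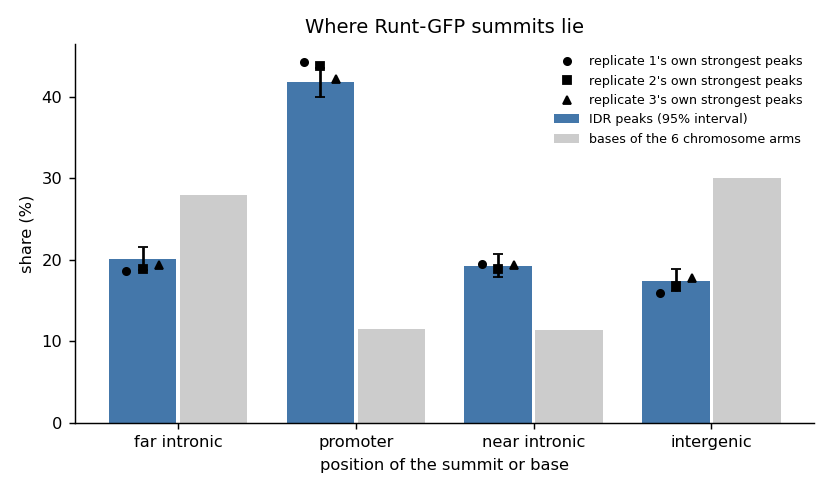
Share of summits in each class of position (vertical axis, percent), with bars for the IDR list and its 95% interval, black symbols for each replicate's own strongest peaks, and grey bars for the share of bases. The far intronic share is 20.1% of IDR peaks against 27.9% of bases, and the promoter share 41.8% against 11.5%.

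Far intronic peaks were weaker and were matched less often across replicates than the other IDR peaks as a group. The median IDR rank of far intronic peaks was 1733, against 1366 for promoter, 1452 for near intronic and 1656 for exonic peaks. Intergenic peaks had a median rank of 1772, so the lower strength was not particular to far intronic peaks. Matching across replicates was not compared class by class. Of the far intronic peaks, 43.5% were among ranks 1 to 1532 of the IDR list, against 51.6% of the 2449 other IDR peaks (difference -8.11 percentage points, Fisher's exact p = 0.000365). Their strongest stood at rank 37, and 10 were among the first 100. In lists cut to the 3065 strongest peaks of a replicate, 51.0% of far intronic peaks and 59.3% of the others were overlapped in all 3 (difference -8.36 points, Fisher's exact p = 0.000217). Replicates 1, 2 and 3 alone overlapped 74.8%, 77.9% and 79.4% of far intronic peaks, against 77.1%, 82.6% and 84.7% of the others. With the whole replicate lists of 30000 peaks the values were 99.5% and 99.1%, a difference of 0.452 points that did not pass (exact p = 0.335). In the 6130 strongest pooled peaks the difference was -2.61 points (exact p = 0.0929).

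The RUNX consensus was more frequent at far intronic summits than beside them. It lay within 50 bases of 74 of 616 summits (12.01%, 9.55 to 14.9) and in 29 flank windows (4.71%, 3.18 to 6.69), which have the same width and are centred 500 bases to 1 side. The difference of 7.31 points passed the exact McNemar test (p = 5.46e-06). The replicates' own far intronic peaks gave 10.8%, 10.9% and 12.8% at summits, against 3.50%, 3.63% and 3.55% in flanks. Summit and flank values did not overlap, and each replicate passed the exact test, with p from 7.72e-09 to 3.72e-06.

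Matches gathered close to the summit. The nearest one was centred at a median of 16.5 bases from it over the 74 windows. In bins of 50 bases, 7.31% of far intronic peaks had a match in the bin before the summit and 5.36% in the bin after. At 450 to 500 bases the values were 2.92% before and 0.812% after. A single match was found in 69 windows and a pair in 5. All 4 spellings had more summit than flank windows, with no test of each: TGTGGTT in 26 and 10 windows, TGTGGTC in 15 and 4, TGCGGTT in 26 and 12, and TGCGGTC in 11 and 4.

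**Figure D2:**
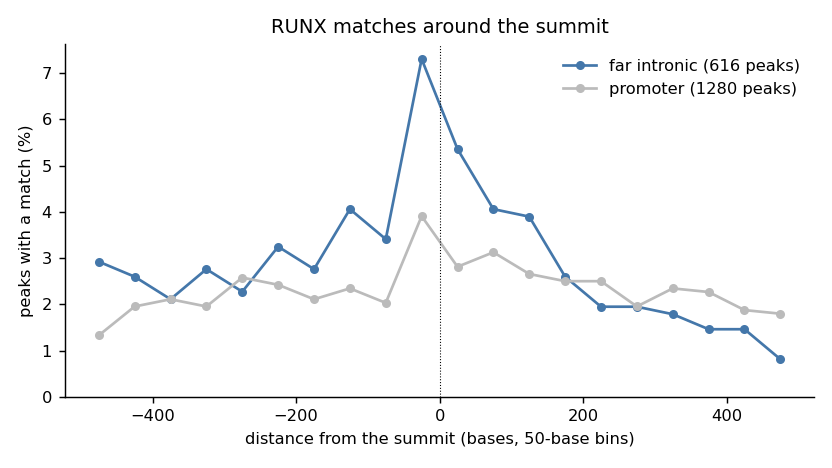
Percent of peaks with a RUNX match (vertical axis) by distance from the summit in bins of 50 bases (horizontal axis), for 616 far intronic and 1280 promoter peaks. The far intronic line peaks at 7.31% beside the summit, and the promoter line at 3.91%.

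The consensus was more frequent at far intronic than at promoter summits. It was found at 12.01% of far intronic summits and at 6.33% of 1280 promoter summits (Fisher's exact adjusted p = 0.000147 over 3 class comparisons). With TGCGGTT and TGCGGTC alone the difference fell short of the threshold, at 1.70 points (exact adjusted p = 0.100). The replicates gave 11.5% ± 1.14 for far intronic and 6.14% ± 0.501 for promoter summits (SD, n = 3). Near intronic summits, at 8.64% of 590, and intergenic ones, at 14.0% of 535, did not differ past the threshold (exact adjusted p = 0.0885 and 0.333). The near intronic comparison passed with windows of 25 or 100 bases either side (exact adjusted p = 0.00236 and 0.0267).

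The excess of summits over flanks was also compared between classes, from windows in which just 1 of the pair had a match. The odds ratio of far intronic over promoter peaks was 1.45 (exact adjusted p = 0.364), and over near intronic peaks 1.22 (exact adjusted p = 0.602). Over intergenic peaks it was 0.385 (exact p = 0.0238, adjusted p = 0.0713). None of these passed, but the calls depended on the setting. The ratio over promoter peaks was 2.17 and 2.21 with flanks at 1000 bases or on the opposite side and 1.73 in the 6130 strongest pooled peaks, each past the threshold (exact adjusted p = 0.0398, 0.0440 and 0.0362). The ratio over intergenic peaks was 0.312 with 5000 bases as the distance and 0.317 with all annotated genes, both past it (exact adjusted p = 0.0172 and 0.0421), and it was 1.09 and 1.22 with flanks at 1000 bases or on the opposite side.

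**Figure D3:**
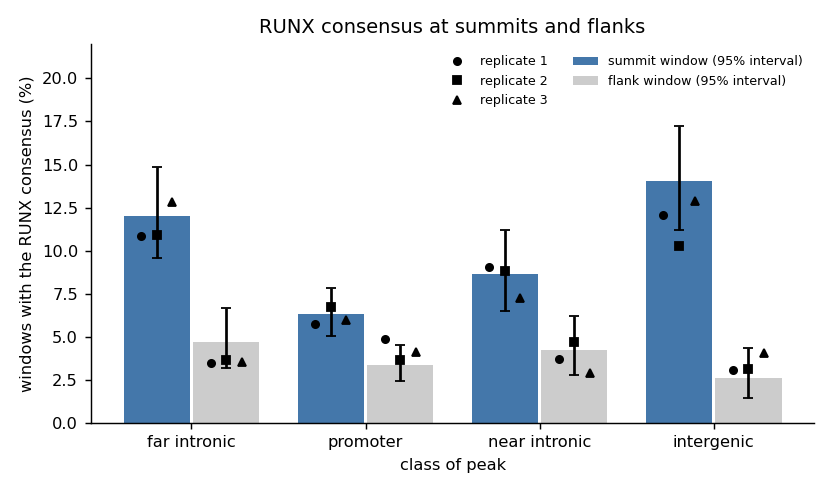
Percent of windows with the RUNX consensus (vertical axis) at summits and in flanks for 4 classes of peak, with bars for the IDR list and 95% intervals and black symbols for the replicates. Far intronic summits stand at 12.01% against 4.71% in flanks, and promoter summits at 6.33% against 3.36%.

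Among far intronic peaks no difference in the consensus by strength was detected. It was found at 39 of the 308 stronger summits (12.7%) and at 35 of the 308 weaker ones (11.4%), a difference that did not pass (Fisher's exact p = 0.710). The 4 strength groups of 154 peaks had 12.3%, 13.0%, 9.09% and 13.6%, from strongest to weakest. Summits matched in all 3 replicates had it in 11.1% of 314 cases and the rest in 12.9% of 302. Of the 20 strongest far intronic peaks, 3 carried it.

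In the longer pooled list the far intronic share grew towards weaker peaks while the RUNX share at these summits shrank. Far intronic peaks were 20.03% of ranks 1 to 3000 and 32.2% of ranks 27001 to 30000. Intergenic peaks went from 17.3% to 30.5% between the same groups, so the growth was not particular to far intronic peaks. The consensus was at 12.2% of the far intronic summits of ranks 1 to 3000 and at 6.83% of those of ranks 27001 to 30000, with 4.83% and 4.04% in flanks. In all, 8559 of the 30000 pooled peaks were far intronic (28.5%), close to the 27.9% of bases that met the rule.

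**Figure D4:**
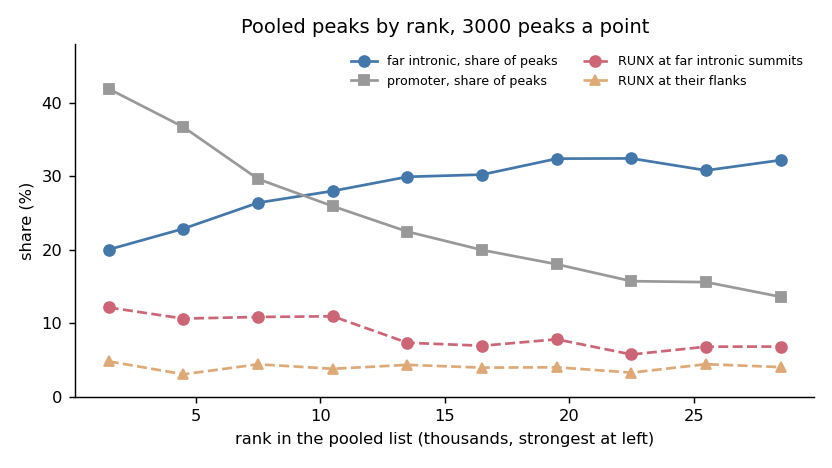
Shares (vertical axis, percent) in successive groups of 3000 pooled peaks by rank (horizontal axis, in units of 1000 ranks, strongest at left). The far intronic share goes from 20.03% to 32.2% along the ranks, the promoter share from 41.9% to 13.6%, and RUNX at far intronic summits from 12.2% to 6.83%.

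Of 17 motifs, RUNX was the one found more often at far intronic summits than in flanks past the threshold (exact adjusted p = 9.28e-05). The proneural E-box CAGCTG, bound by Achaete-Scute factors, was found at 2.27% of summits, against 6.01% of flanks (exact adjusted p = 0.0119). It passed in none of the replicates' own peaks, at 2.87% ± 0.529 of summits and 4.66% ± 0.533 of flanks (SD, n = 3). The Mef2 site, bound by the muscle regulator Mef2, was at 6.33% and 3.25% (exact adjusted p = 0.0926). The E-box of Twist and Snail was at 6.01% and 9.42% (exact adjusted p = 0.125). The other 13 motifs had adjusted p from 0.386 to 1, among them GATA at 4.55% and 3.08% and GAGA at 1.46% and 1.30%.

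The motifs were searched on both strands. GATA was NGATAAG with A or T at N, the homeodomain site TAATTA, that of Zelda CAGGTAG, and that of GAGA factor GAGAGAG. Twist and Snail were searched as CANATG with C or T at N. The Grainyhead site was AACCGGTT, the Sox site NATTGTT with C or T at N, the Tinman site TNAAGTG with C or T at N, and the Tcf site CTTTGAN with A or T at N. For STAT it was TTCNNNGAA, for AP-1 TGANTCA, and for Ets CCGGAAN with A or G at N. Su(H) was searched as GTGNGAA with A or G at N, after a C or T, and the longer Mef2 site is given by name. Of all IDR summit windows, 3.10% held the proneural E-box, 7.21% the Mef2 site, 7.24% the E-box of Twist and Snail, 0.718% the DREF site, 1.76% the Ets site, 3.72% GATA and 1.89% GAGA.

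Against promoter summits, 3 motifs differed. RUNX was more frequent, and 2 were less frequent: the DREF site TATCGATA, bound by a factor of housekeeping promoters, was at 0 of 616 far intronic summits, which allows a share of up to 0.487% (3 counts), and at 1.72% of promoter summits (exact adjusted p = 0.00242). The Ets site was at 0.649% and 2.89% (exact adjusted p = 0.00615). In the shorter lists without replicate 1 and without replicate 2, DREF (exact adjusted p = 0.0836 and 0.0680) and Ets (0.0836 and 0.126) did not pass.

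Six-base sequences were also compared without a preset motif, and those enriched at summits were mostly rich in A and T. With each sequence and its reverse complement counted as 1, 62 (2.98% of all) were more frequent at far intronic summits and 34 (1.63%) in flanks by exact McNemar tests at adjusted p below 0.05. The lists that did not require overlap in replicate 1, 2 or 3 held 386, 379 and 372 far intronic peaks, with pooled summits. In them 33, 24 and 34 sequences were more frequent at summits and 9, 6 and 8 in flanks. Of the 36 sequences made of A and T alone, 23 were among the 62. AAATAA led, in 33.6% of summit and 17.7% of flank windows (exact adjusted p = 3.10e-07). The replicates' own peaks gave 34.8%, 32.0% and 34.97% of summits, against 22.03%, 22.5% and 19.4% of flanks, and replicate 2 did not pass (exact adjusted p = 0.094). TACTAA was at 9.09% and 1.95%, and the overlapping ATACTA at 7.95% and 1.79% (exact adjusted p = 2.15e-05 and 5.94e-05). Single replicates gave 8.22%, 8.30% and 8.11% of summits for TACTAA, against 4.20%, 3.81% and 3.72% of flanks, and none passed alone. TACTAA was also at 7.97% of promoter summits and 2.66% of their flanks. AAATAA was at 36.3% of promoter summits and 17.6% of their flanks, so its excess was not particular to far intronic peaks. Near intronic peaks had AAATAA at 31.9% and 21.9%, and intergenic peaks at 30.1% and 22.1%. Mean GC content was 34.5% ± 9.55 in summit windows and 40.9% ± 8.95 in flanks (SD over 616 peaks), and the part of base composition in these sequence counts was not tested. For promoter peaks the mean GC content was 33.7% ± 10.8 in summit windows and 44.5% ± 10.7 in flanks (SD over 1280 peaks).

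The number of six-base sequences that differed between far intronic and promoter summits varied strongly with list length and window. By Fisher's exact test, 2 were more frequent (0.0962% of all) and 4 less frequent (0.192%). The 2 were CAAACA, at 17.5% and 10.2%, and CCCCAC, at 3.41% and 0.625% (exact adjusted p = 0.00831 for each). CCCCAC was at 4.22% of far intronic and 3.05% of promoter flanks, so it was not enriched at far intronic summits. CAAACA was at 10.9% and 10.4% of these flanks. Near intronic and intergenic summits had CCCCAC at 4.07% and 2.62%, and CAAACA at 16.6% and 13.5%. The 4 less frequent sequences were made of A and T alone. Of them the one with the smallest p, TTAAAA, was at 25% and 34.9% of far intronic and promoter summits. In the shorter lists, the count of less frequent sequences was 0 without any of replicates 1, 2 or 3, and that of more frequent ones was 2 without replicate 1 and 0 without replicate 2 or 3. In the 6130 strongest pooled peaks 53 were more and 57 less frequent, and with windows of 100 bases either side 31 and 27.

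Far intronic peaks were denser in first introns, those after the first exon of a protein-coding transcript, than in other introns, and they thinned with distance. There were 361 peaks in 12.9 Mb of first introns (27.9 per Mb) and 255 in 24.4 Mb of other introns (10.4 per Mb). The ratio of densities was 2.67 (95% interval 2.27 to 3.15, exact binomial p = 9.03e-34), and the replicates gave 2.85, 2.64 and 2.55. The binomial tests of density treat peaks as independent, which the interval and p depend on. Of the 616 peaks, 393 lay in genes with 2 or more, and 227 had another far intronic peak within 5 kb. Density was 27.6 per Mb at 3 to 5 kb from a start, 21.8 at 5 to 10 kb, 14.3 at 10 to 20 kb and 5.36 beyond 20 kb. First introns hold more of the sequence near starts, so the ratio was also taken within these classes of distance, a comparison chosen after seeing the data. It was 1.85, 1.95, 2.22 and 3.59, each past the exact binomial test (adjusted p from 1.86e-06 to 2.62e-05).

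**Figure D5:**
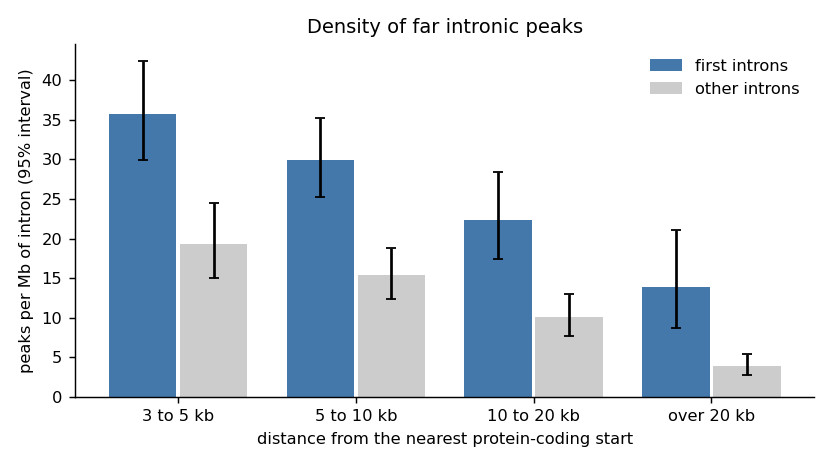
Far intronic peaks per Mb of sequence that met the rule (vertical axis, with 95% Poisson intervals) by distance from the nearest protein-coding start, in first and in other introns. First introns stand at 35.8 per Mb and other introns at 19.4 at 3 to 5 kb, and at 13.9 and 3.87 beyond 20 kb.

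The peaks lay at a median of 6722 bases from the nearest protein-coding start (quartiles 4410 and 11302). The farthest, at 77001 bases, was in hth. Introns of 10 to 20 kb carried 23.1 peaks per Mb, those of 20 to 50 kb 18.2, those over 50 kb 10.8 and those under 10 kb 14.99. At the distance limit, the nearest peaks inside it were in CG12991, CG32066 and atos, at 3012, 3013 and 3023 bases with ranks 2541, 2373 and 433. The nearest outside it were in lili, siz and drn, at 2999, 2996 and 2965 bases with ranks 1218, 941 and 2285. Of the 616 peaks, 25 also lay inside a non-coding RNA gene, and 19 within 500 bases of the start of a gene that is not protein-coding.

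The X chromosome carried far intronic peaks at a density that did not differ past the threshold from the autosomes. There were 122 in 6.68 Mb on X (18.3 per Mb) and 494 in 30.3 Mb on the large autosomal arms (16.3 per Mb). The ratio was 1.12 (0.913 to 1.37, exact binomial p = 0.249), and the replicates gave 1.07, 1.02 and 1.00. Chromosome 4 held none in 0.388 Mb, which has a 95% Poisson upper limit of 9.51 per Mb.

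The strongest far intronic peaks are given by host gene, without a test of what these genes share. The strongest of all was in Gug, which encodes the corepressor Atrophin (chr3L:8458149-8458554, signal 963, IDR rank 37), and ranked 48, 40 and 31 in replicates 1, 2 and 3. The next, in beat-Ib, an immunoglobulin-family gene of the beaten path group, ranked 53, with replicate ranks of 52, 57 and 57. The third was in sbb, which encodes the corepressor Scribbler, at rank 58, and stood at 55, 68 and 69. All 20 of the strongest were among the 3065 strongest peaks of every replicate, and their lowest rank in any was 281.

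Introns of osa, a subunit of the Brahma remodelling complex, held the peaks at ranks 65 and 80. Kdm2, a histone demethylase, held that at rank 72, and simj, a subunit of the NuRD complex, those at ranks 85 and 113. The peaks at ranks 99 and 104 lay in trx, a histone methyltransferase of the trithorax group, and in tara. Nuclear receptor genes held that at rank 84, in Hr3 and in the overlapping CG12912 and CG46321, and that at rank 175, in Hr4.

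The Notch coactivator gene mam (Mastermind) held the peak at rank 154, and bnl, the FGF ligand Branchless, that at 164. Dad, the inhibitory Smad of the Dpp pathway, held that at rank 212. Others lay in beat-Ib again (96), CG9328 (124), GlcAT-S (133), a glucuronyltransferase gene, and Pits (172). Of the 3 with a RUNX match, 2 were in GlcAT-S and bnl.

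Far intronic peaks lay in 376 of the 3021 protein-coding genes with sequence that met the rule (12.4%). Of these, 147 held more than 1. The gene with most was sbb, with 11 peaks, at ranks 58 to 2984, of which 2 had a RUNX match. Next were ftz-f1, a nuclear receptor gene, with 7, and tara, Raf, the kinase below Ras, and jing, a zinc-finger gene, with 6 each. With 5 each came beat-Ib, Hr4, the Dpp-pathway gene shn, the Hox cofactor gene hth and kirre, a receptor of myoblast fusion. Overlapping intervals are listed as separate peaks: counted once where they overlap, tara had 5 and beat-Ib, shn and hth 4 each, while the counts of sbb, ftz-f1, Raf, jing, Hr4 and kirre stayed the same. Over all 616 peaks, 34 overlapped another, and 599 separate intervals remained. Gene length differs widely among these hosts: kirre had 268.4 kb of sequence that met the rule, or 0.186 peaks per 10 kb, and tara 22.1 kb, or 2.71 per 10 kb. Another IDR summit lay within 5 kb of 292 far intronic peaks (47.4%).

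In Raf the 6 peaks lay between 3688 and 11101 bases from the nearest start. The strongest, at IDR rank 250, ranked 158, 232 and 289 in replicates 1, 2 and 3, and the weakest, at rank 3035, ranked 3436, 2195 and 3831. None had a RUNX match. In ftz-f1 the strongest peak, at IDR rank 812, ranked 825, 842 and 921, and none of its 7 peaks had a match.

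Some lists of genes held these peaks more often than the 12.4% of all genes that could. All lists were chosen with earlier results of these data known, so a share or density above the background is not an independent result. The lists differ in gene length, so peaks per Mb of sequence that met the rule are given beside the 16.5 of all such sequence, with no test. Overlapping intervals count as separate peaks in these densities, as in shn of the Dpp list and tara of the chromatin regulators. Of the ecdysone and nuclear receptor genes, 9 of 14 held a peak, at 50.8 per Mb (31.8 to 76.9), led by Hr3, Hr4, the ecdysone-induced Eip74EF (rank 553) and E23 (568). Of Dpp pathway genes, 5 of 8 did, at 121.7 per Mb (64.8 to 208.2), led by Dad, shn (686), dpp itself (1123), the ligand, and its antagonist sog (1210). Of EGFR, FGF and Ras genes, 7 of 14 did, at 53.6 per Mb, led by bnl, the EGFR antagonist aos (246), Raf and the ligand gene vn (795). Chromatin regulators had 6 of 18, at 81.9 per Mb (45.9 to 135.2), led by osa, trx, tara and the kinase gene Tlk (1065).

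Forkhead genes had 3 of 5 (jumu, CHES-1-like and foxo), at 140.7 per Mb (45.7 to 328.4), from 5 peaks. Cytoskeleton and small GTPase genes had 6 of 11, at 40.1 per Mb, led by spri (441), chic, RhoGAP71E and RhoGEF64C. RNA-binding genes had 6 of 13, led by pum (879), how, mbl and Rbfox1, but at 11.2 per Mb (5.60 to 20.1) their density was below the 16.5 of all such sequence. Axon guidance genes had 12 of 31, at 16.9 per Mb, led by the Netrin receptor fra (289), DIP-alpha, the ligand NetA and caps. Adhesion and myoblast fusion genes had 6 of 17, at 18.4 per Mb, led by ed (1187), kirre, Fas3 and mew. Genes of the GATA factors and ush had 2 of 5 (ush at 717 and grn), at 53.8 per Mb (14.65 to 137.6). JAK-STAT genes had 2 of 6 (Ptp61F and Socs36E), at 45.3 (12.35 to 116). Homeotic genes and cofactors had 3 of 10 (hth at 876, Antp and lab), at 27.5 (13.2 to 50.5). The intervals of these lists include the 16.5 of all such sequence. Segment-polarity genes had 3 of 13, namely the Hedgehog receptor ptc (384), the Wingless receptor fz (522) and inv, at 29.0 per Mb.

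Notch pathway genes had 2 of 11 (mam and N), at 23.6 per Mb, mesoderm and heart genes 2 of 9 (how and Mef2), at 26.1, and gap, head and maternal genes 1 of 5 (cad), at 15.4. Neuroblast regulators had 1 of 11 (chn), at 17.9 per Mb, and neuronal differentiation genes 2 of 14 (Gad1 and Sh), at 7.48. Gut, fat body and hemocyte genes had 1 of 8 (ush), at 42.6 (8.79 to 124.6), from the 3 ush peaks also counted with the GATA factors. No far intronic peak lay in muscle structural genes (0 of 11), tracheal and epidermal genes (0 of 7), RUNX genes and partners (0 of 4) or pair-rule genes, of which opa alone had any sequence that met the rule. Lists this short give wide intervals: for muscle structural genes a density of up to 26.5 per Mb is within the 95% interval.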

How the data were processed

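Peak lists of 3 biological replicates, a pooled list and the list passing an irreproducible discovery rate (IDR) threshold were used. The replicate lists were called against 1 shared control alignment, per the readme files, so they are not fully independent. Aligner, peak caller and threshold are named neither in the labels nor in the readme files. The signal value of each peak is the authors' own, of unstated scaling, and only ranked peaks within a list. Read depth is unknown, and intervals cover counting error only.

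Arm lengths of the Ensembl release 115 annotation and of the RefSeq sequence (Release 6 of the genome, dm6) were compared with the peaks, and all peaks lay within them. A summit's window was compared with a window 500 bases to 1 side, the side fixed by a hash. Exact McNemar, Fisher and binomial tests were two-sided, with Benjamini-Hochberg adjustment, and treat peaks as units. The tests were run on simulated data, with summit and flank windows of the same GC content and peaks drawn independently. In the real data GC content differs between these windows and peaks cluster, so the simulation does not show how the tests behave there. A replicate's own values come from its 3065 strongest peaks.

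The members, gene lists and motifs were chosen with earlier results of these data known. Genes were named as hosts of the 20 strongest members, as the 5 genes with most members with ties, as the 4 hosts per list with the strongest member, and as neighbours of the distance limit. One of the 20 strongest members is not reported here. Alternatives changed the distance, annotation, list length, the replicates required to overlap a pooled peak, windows, flanks and motif forms. Lists without a replicate required overlap by both other replicates alone. They kept the summits and signal values of the pool of all 3, so no replicate was removed from the peak calls. The software was scipy 1.17.1, matplotlib 3.10.9, pandas 2.3.3 and numpy 2.4.6 under Python 3.11.15.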

Additional observations from a re-analysis of the deposited data

How the results depend on the processing

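The RUNX excess at far intronic summits over flanks, the lower share in the upper ranks and the first-intron density ratio kept their direction and passed their exact tests under all alternatives run for them. The causes of the changes below were not tested. Shorter and longer lists also hold fewer or more peaks, and the part of list size was not tested either. The far intronic share was 24.3% with 2000 and 13.6% with 5000 bases as the distance, 17.2% with all annotated genes, 17.5% in ranks 1 to 1532, 21.6% in the 6130 strongest pooled peaks, 18.0% to 18.8% without a replicate, and 18.95% ± 0.335 in the replicates' own peaks (SD, n = 3). The difference in matching across replicates was -2.61 points in the 6130 pooled peaks (exact p = 0.0929) and 0.452 with whole replicate lists. The X to autosome ratio was 0.994 with 5000 bases, 0.975 in the 6130 pooled peaks and 0.989 without replicate 1, and 0.989 to 1.17 over the lists without a replicate, none past the exact test. Density in introns over 50 kb relative to those of 10 to 20 kb was 0.469, and 0.516 in ranks 1 to 1532 and 0.453 to 0.539 without a replicate. Host genes numbered 206 in ranks 1 to 1532 and 601 in the 6130 pooled peaks.

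For RUNX against promoter peaks the difference was 1.70 points with TGCGGTT and TGCGGTC alone and no longer passed (exact adjusted p = 0.100). The odds ratio of the excess over flanks against promoter peaks was 1.73 in the 6130 pooled peaks, 2.17 with flanks at 1000 bases, 2.21 with flanks on the opposite side, all past the threshold, and 0.901 with TGCGGTT and TGCGGTC alone. Against near intronic peaks the difference was 4.53 points with windows of 25 bases and 5.12 with 100, and the odds ratio 0.794 with 5000 bases and 0.970 with the core lacking its last base. Against intergenic peaks the difference was 1.26 points in ranks 1 to 1532, 1.85 with windows of 25 bases, 0.886 with TGTGGTT and TGTGGTC alone, and -2.10 to 0.165 without a replicate. That odds ratio was 0.312 with 5000 bases and 0.317 with all annotated genes, both past the threshold, and 1.09 with flanks at 1000 bases and 1.22 on the opposite side.

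Motifs more frequent at summits numbered 2 in ranks 1 to 1532 and 1 to 2 without a replicate. Motifs less frequent numbered 0 with 5000 bases, in the 6130 pooled peaks, with windows of 25 bases, with flanks at 1000 bases and in each replicate's own peaks, where the E-box CAGCTG no longer passed. Against promoters, 3 were more frequent in the 6130 pooled peaks, and 0 were less frequent in ranks 1 to 1532 and with windows of 25 bases, and 0 to 2 without a replicate.

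Six-base sequences more frequent at summits numbered 22 with 5000 bases, 16 in ranks 1 to 1532, 24 to 34 without a replicate, 23 with windows of 25 bases, 29 with flanks at 1000 bases and 23.3 ± 20.7 in the replicates' own peaks (27, 1 and 42). Those more frequent in flanks numbered 60 with 2000 and 3 with 5000 bases, 16 with all annotated genes, 0 in ranks 1 to 1532, 62 in the 6130 pooled peaks, 6 to 9 without a replicate, 5 with windows of 25 bases, 9 with flanks at 1000 bases, 18 on the opposite side and 7.67 ± 10.02 in the replicates' own peaks. Those more frequent than at promoters numbered 6 with 2000 and 1 with 5000 bases, 1 with all annotated genes, 0 in ranks 1 to 1532, 53 in the 6130 pooled peaks, 0 to 2 without a replicate, 1 with windows of 25 bases and 31 with 100. Those less frequent numbered 0 with 5000 bases, 1 with all annotated genes, 0 in ranks 1 to 1532, 57 in the 6130 pooled peaks, 0 without any replicate, 0 with windows of 25 bases and 27 with 100.

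No paired analysis was possible because the samples form 1 group. Read depth, which limits all shares, is unknown.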

Other observations

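Far intronic peaks on X carried the RUNX consensus less often than those on the autosomes, a comparison made after seeing the data. It was at 5 of 122 summits on X (4.10%, 1.34 to 9.31) and at 69 of 494 on the large autosomal arms (14.0%, 11.0 to 17.3; Fisher's exact p = 0.00166, adjusted p = 0.00664 over 4 classes of peak). In the IDR list flank windows ran the same way, with 0.820% on X and 5.67% on autosomes. The excess of summits over flanks did not differ past the threshold in that list (exact p = 1 on windows in which just 1 of the pair matched). The replicates' own peaks gave 7.34% against 11.7% in replicate 1 (exact p = 0.232), 0 of 106 (up to 2.83% allowed, from 3 counts) against 13.3% in replicate 2 (exact p = 2.51e-06), and 7.48% against 13.8% in replicate 3 (exact p = 0.0785). X was lower in 3 of 3 replicates, and the size rests most on replicate 2. In replicate 2 the flanks were alike, at 2.83% on X and 3.81% on autosomes. Its excess of summits over flanks did differ between X and autosomes (exact p = 0.0107, not adjusted). In replicates 1 and 3 that excess did not differ past the threshold. Promoter, near intronic and intergenic peaks, at 4.79%, 6.87% and 11.5% on X and 6.60%, 9.15% and 14.5% on autosomes, did not pass. X minus autosome differences in replicates 1, 2 and 3 were -1.18, -4.22 and -1.95 points for near intronic peaks. For intergenic peaks they were -6.48, -3.68 and -4.01, and for promoter peaks -1.84, 0.0694 and -2.50, none past the exact test. A lower value on X in every replicate was thus not particular to far intronic peaks.

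Far intronic windows with a RUNX match averaged 42.0% ± 8.91 GC (SD, 74 peaks), against 33.5% ± 9.18 GC for those without (SD, 542 peaks). The 20 strongest far intronic peaks averaged 27.6% ± 7.75.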
